A study of Mus musculus with 6 samples.

Results

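In mouse embryonic stem cells, 3743 introns of 2494 genes carried most of their unsplit reads at the 5′ junction. An unsplit read is one that runs from exon into intron without a gap, and a split read is one that jumps from an exon across an intron. The introns, called 5′-skewed here, were chosen from 68322 unique introns listed in all 4 total RNA libraries. The choice used the unsplit reads of the 2 control libraries only: their sum at the 5′ junction had to be at least 30 reads and at least 3 times the sum at the 3′ junction plus 1. The control values of these reads therefore describe the choice and are not tested.

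The cells were E14 mouse embryonic stem cells of 129/Ola background, a pluripotent line, grown on gelatin with serum and leukemia inhibitory factor. Cells of both groups were transfected with Lipofectamine2000, the controls with a control siRNA and the knockdown cells with an siRNA against Son, and RNA was taken with TRIzol 24 hours later. Total RNA depleted of ribosomal RNA gave 2 libraries per group, and the Nanopore cDNA libraries, 1 per group, are not used below. An siRNA lowers a transcript in part and in bulk, so fewer cells with a transcript and less of it per cell cannot be told apart. Nothing in the labels says that the samples of a group came from separate cultures, so p-values measure the spread between these samples, which may be technical.

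As background, an intron is removed after U1 snRNP marks its 5′ splice site and U2 snRNP its branch site near the 3′ end. Some genes end part of their transcripts by cleavage and polyadenylation inside an intron, or use another 5′ splice site further into it, and both kinds of transcript keep intronic sequence behind the annotated exon. U1 snRNP also blocks premature cleavage inside introns, and CDK12 with its cyclin keeps RNA polymerase II elongating past such sites. Whether any intron below is of either kind was not tested. SON is a large RNA-binding protein of nuclear speckles that promotes the splicing of introns with weak splice sites.

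The 10 introns with the most unsplit reads at the 5′ junction in the controls, at most 1 per gene, are shown by the last 30 exonic bases before that junction, because the exon end is the part of the 5′ splice site that transcript sequences hold. Sequences are written 5′ to 3′ from the GENCODE M21 transcripts of mouse GRCm38, found by transcript and intron number, with the last 3 exonic bases in capitals.
Gm17232 intron 1: acctatggcctgtcggaggggatccacGCA
Gm45894 intron 3: gtgctgggagtcggtgcagtcgaacacCAG
Npm1 intron 1: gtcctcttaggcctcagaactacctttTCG
Mid1 intron 8: gcagcgagcccggaaagctgaagaccaACA
Gm38316 intron 1: aggtactgtttgaaggcatatatctcaAGT
Hnrnpa2b1 intron 11: gcttccttcagtggtgttggtagtaaaATG
Zfp42 intron 3: gtgttgtccccaaataccactgaccaaAAA
Hsp90aa1 intron 10: ggatctacaggatgatcaagcttggtcTAG
Ccdc66 intron 2: tcagcagagctgagagcaatactgggaATG
Actb intron 4: ctgaggctcttttccagccttccttctTGG

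In these 10, the exon ended in G at 6 introns and in CAG or AAG, the ends closest to the consensus that pairs with U1 snRNA, at 1. Among the 3712 5′-skewed introns matched to a GENCODE M21 model, 77.6% had an exon ending in G and 43.2% one ending in CAG or AAG. Over all matched introns those shares were 81.2% and 43.9%. Among the introns that met the same minimum of 30 reads at the 5′ junction but not the ratio, 11518 in number and called comparison introns here, the shares were 79.9% and 43.0%. Among the 3861 introns that met the same rule with the junctions exchanged, called 3′-skewed here, they were 85.2% and 44.2%. No test was made of differences between these sets of introns, here or below.

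The libraries held 15740941, 10535924, 14734637 and 10464961 split reads at the 5′ junctions of the 68322 introns, in the order control 1, control 2, knockdown 1 and knockdown 2, which is kept below. The targeted transcript, Son, had 4376, 3251, 1380 and 1061 spliced reads, meaning split 5′ reads summed over its introns. The groups did not overlap, and the log2 fold change was -1.61 (SE 0.0869, n = 2 and 2, adjusted p = 3.72e-10 by the quasi-likelihood test of edgeR, with p-values adjusted by Benjamini-Hochberg). Of 10 embryonic stem cell markers, 9 were listed, with 4749 to 5007 summed CPM (spliced reads scaled to library size) in the 4 libraries. Among them 1 was called higher, the transcription factor gene Tfcp2l1, with a log2 fold change of 0.23, and 0 were called lower. Over all 9474 tested genes 1.96% were called higher and 6.76% lower, so nothing is read from the count of called markers. The Tfcp2l1 call was lost without control 1 (log2 fold change 0.24) and without control 2 (0.21). The median log2 fold change of the 9 was -0.11. Esrrb also had a positive value (0.06), and the remaining markers had negative values. Primitive endoderm markers had 1 of 5 listed with 1.82 to 2.86 CPM, fibroblast markers 1 of 4 with 1.15 to 2.17, and neural markers 3 of 4 with 70.7 to 86.2. Most of the neural sum was Tubb3 with 66.2 to 81.8 CPM, while Pax6 had 1.24 to 1.63 and Nes 2.22 to 3.13. A junction is listed only with at least 10 reads, so an unlisted marker was not shown to be absent.

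The 5′-skewed introns held 19.1%, 18.7%, 17.4% and 17.6% of all unsplit reads at 5′ junctions in the 4 libraries. They held 3.25%, 3.29%, 3.75% and 3.56% of the unsplit reads at 3′ junctions and 6.81%, 6.84%, 6.85% and 6.69% of the split reads at 5′ junctions. Per intron, the median control sum was 53 unsplit reads at the 5′ junction, 9 unsplit reads at the 3′ junction and 209 split reads at the 5′ junction. In the knockdown the same medians were 53, 12 and 198 reads. Comparison introns had control medians of 47, 41 and 403 reads.

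The share of an intron's unsplit reads that lay at its 5′ junction had medians of 85.7% and 85.2% in the 2 controls, where the rule set it, and of 82.1% and 84.0% in the 2 knockdown libraries, which the rule did not use. Comparison introns had medians of 56.1%, 55.9%, 54.7% and 55%. The asymmetry was thus present in each knockdown library at nearly the control level. At the 5′ junction of 5′-skewed introns, unsplit reads made up a median of 20%, 21.6%, 18.2% and 23.2% of all reads of that junction. At their 3′ junction they made up 3.21%, 3.55%, 3.98% and 4.41%.

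**Figure D1:**
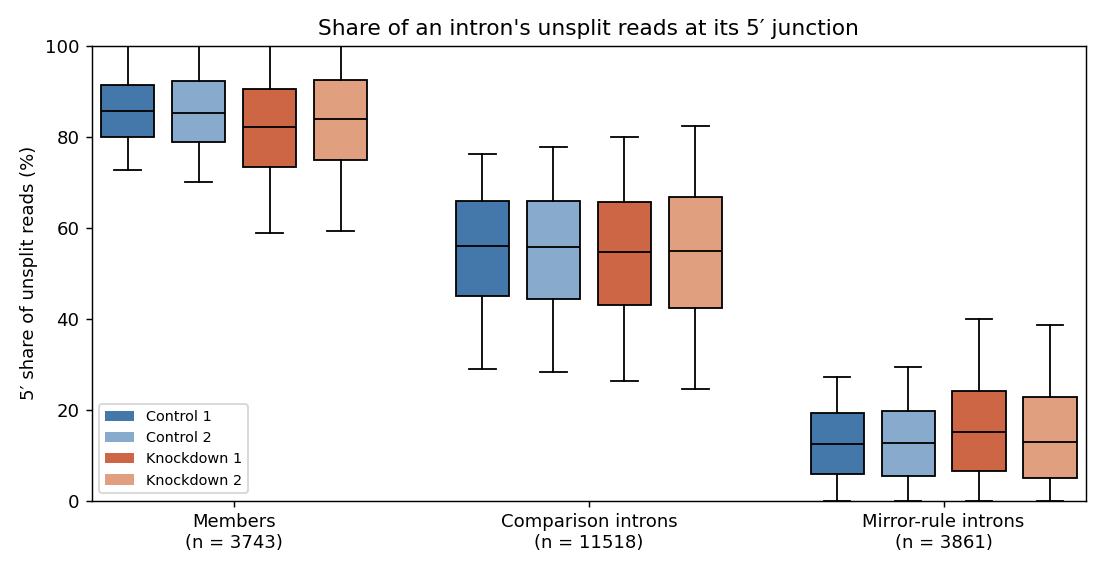
Share of an intron's unsplit reads at its 5′ junction (%), for 5′-skewed introns (labelled members), comparison introns and 3′-skewed introns (labelled mirror-rule introns) in each of the 4 libraries. Boxes span the quartiles with the median as a line, and whiskers span the 5th to 95th percentiles. The 5′-skewed medians lie between 82.1% and 85.7% in all 4 libraries, with control values fixed by the rule.

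The same rule applied to the knockdown libraries was met by 2446 of the 3743 introns (65.3%). It was met by 6.96% of the comparison introns, by 0 of the 3′-skewed introns and by 5.88% of all introns. Of the 4019 introns that met it in the knockdown, 60.9% were 5′-skewed in the controls and 1573 were not. Of the 1297 that no longer met it, 516 had under 30 reads at the 5′ junction in the knockdown and 781 had a ratio under 3. Unsplit reads at the 5′ junction exceeded those at the 3′ junction in both knockdown libraries for 3624 introns (96.8%), against 47.4% of the comparison introns. The shares depend on how near an intron lay to the thresholds, as follows.

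The share that met the rule again rose with the control ratio of 5′ to 3′ unsplit reads. It was 51.8% of 1867 introns with a control ratio from 3 to under 5, 75.9% of 1224 from 5 to under 10, 82.3% of 435 from 10 to under 20, and 88.5% of 217 with a ratio of 20 or more. The median ratio over all 5′-skewed introns was 5 in the controls and 4.31 in the knockdown, and in the class of 20 or more it was 32 and 18.5. By reads, the rule was met again by 56.2% of introns with 30 to under 60 control reads at the 5′ junction and by 85.9% of those with 120 or more. Since high control values chose the introns, lower knockdown values in the same introns carry no information on Son.

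**Figure D2:**
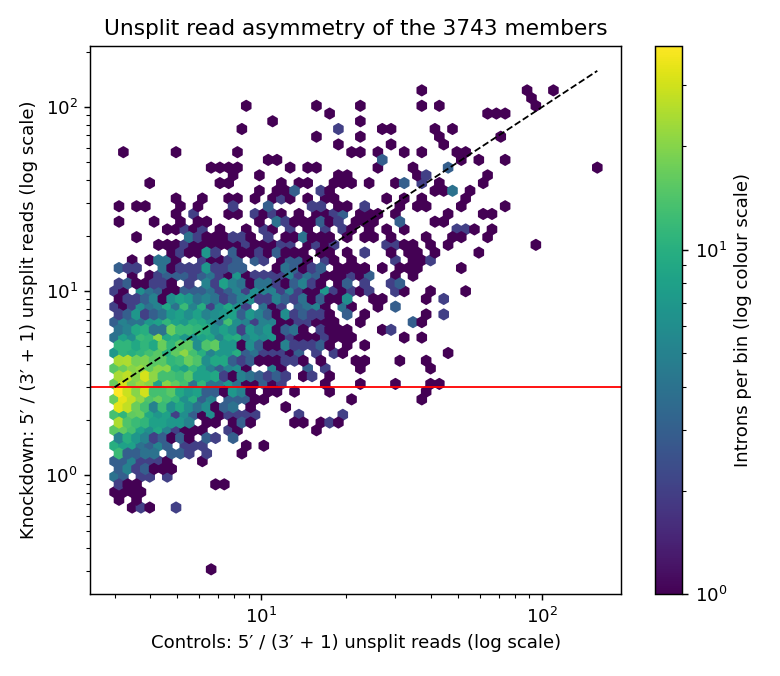
Ratio of unsplit reads at the 5′ junction to those at the 3′ junction plus 1 for the 3743 5′-skewed introns, summed over the 2 controls (horizontal, log scale) and over the 2 knockdown libraries (vertical, log scale), with colour for the number of introns. The red line is the rule's ratio of 3, the dashed line marks equal ratios, and 2446 introns lay on or above the red line with at least 30 knockdown reads at the 5′ junction.

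Many introns sat at the limits of the rule. At exactly 30 reads there were 116 introns inside, and 121 introns with the ratio had 29 reads and were outside. Just inside the minimum, F11r intron 1 had 30 control reads at the 5′ junction and 9 at the 3′ junction, and Washc4 intron 19 had the same sums. Just outside it, Adam23 intron 20 had 29 and 8. Just inside the ratio, Bub1b intron 12 had 165 and 54 reads and Ssr2 intron 3 had 144 and 47. Just outside it, Pisd-ps1 intron 2 had 179 and 59 and Mybl2 intron 10 had 149 and 49.

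The 5′-skewed introns had a median length of 1420 nt, with quartiles of 635 and 3037.5 nt and a range from 71 to 186913 nt. Comparison introns had a median of 942.5 nt, 3′-skewed introns of 1119 nt and all introns of 1134 nt. Among introns with 30 or more control reads at the 5′ junction, the 5′-skewed share rose with each length class. It was 3.54% (43 of 1215) up to 100 nt, 16.8% (375 of 2230) above that up to 300 nt, 25.9% (1017 of 3934) up to 1000 nt and 27.4% (1356 of 4954) up to 3000 nt. In longer introns it was 30.7% (713 of 2321) up to 10000 nt and 39.4% (239 of 607) beyond. A read that covers the whole of a short intron is unsplit at both junctions. Whether this contributed to the shares was not tested.

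By position in the matched model, 328 of the 5′-skewed introns (8.84%) were first introns and 401 (10.8%) last introns. All introns had 7.52% first and 10.5% last introns, and 3′-skewed introns had 15.7% and 15.4%. The models were protein-coding for 3386 of the 3712 matched introns (91.2%). In the GENCODE M21 annotation, 1 of the matched introns overlapped any exon of its own strand, and 0 held an annotated second 5′ splice site or a transcript end of the gene inside. Over all matched introns, 23 overlapped an exon of the same strand, so the deposited tables hold almost no introns with an annotated same-strand exon in them. An exon of a gene on the opposite strand lay over the 5′ junction of 81 of the 5′-skewed introns (2.18%), against 2.26% of comparison introns and 1.46% of all introns. Whether reads were counted by strand is not given in the sources used here, so reads of such partners cannot be told apart from those of the intron.

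Most of the genes had a single 5′-skewed intron: 1684 genes had 1, 531 had 2 and 279 had 3 or more. The highest numbers stood in long genes with many listed introns. Macf1, which encodes a protein that links microtubules and actin, had 13 of its 96 listed introns in the set. Mdn1, an ATPase of ribosome assembly, had 11 of 93, and the ubiquitin ligase gene Huwe1 had 10 of 75. Of the 3743 introns, 42 were listed under several genes.

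The 10 introns with the most reads were 4 under an opposite-strand exon, 3 in messenger RNAs with many split reads at both junctions, and 3 others with a larger unsplit share. Positions are those of the deposited tables, 1-based, and the submitters' processing notes name GRCm39. All 10 met the rule again in the knockdown libraries. At the 5′ junction the counts of unsplit reads of the groups overlapped in all 10, without a correction for the unequal depth of the libraries. Scaled to the split reads of each library, they were higher in both knockdown libraries than in both controls for Gm45894 intron 3. They were lower in both knockdown libraries for Npm1 intron 1, and they overlapped in the rest. These scaled differences were not tested. In the test of split reads described below 7 of the 10 had enough reads, and 0 were called, where 2.64% of all introns were.

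For 4 of the 10, an exon of an opposite-strand gene lay over the 5′ junction. Gm17232 intron 1 (chr14:63731219-63735051, plus strand, antisense transcript ENSMUST00000164515) had 2921, 2098, 2923 and 1699 unsplit reads at the 5′ junction and 76, 62, 52 and 63 at the 3′ junction. It had only 15, 14, 29 and 20 split reads at the 5′ junction, so nearly every read there was unsplit in all 4 libraries. Gm45894 intron 3 (chr8:123618634-123622454, plus strand, antisense transcript ENSMUST00000211940) had 1790, 1153, 1787 and 1318 unsplit reads at the 5′ junction and 0 split reads in every library. Gm38316 intron 1 (chr14:51188333-51189309, minus strand) had 734, 566, 735 and 605 unsplit reads at the 5′ junction and likewise 0 split reads there. Ccdc66 intron 2 (chr14:27204560-27204897, minus strand, a noncoding model of a gene for a centrosome and cilium protein) had 635, 425, 591 and 557, also with 0 split reads at the 5′ junction. In these 4 introns the annotated 5′ splice site was used rarely or never in the libraries.

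Among the introns of abundant transcripts, Npm1 intron 1 (chr11:33111628-33112921, minus strand, ENSMUST00000075641) had 982, 661, 860 and 622 unsplit reads at the 5′ junction and 91, 45, 86 and 64 at the 3′ junction. Npm1 encodes nucleophosmin, a nucleolar chaperone of ribosome assembly, and its intron had 23725, 15866, 20677 and 13151 split reads. The unsplit reads were therefore 3.97%, 4%, 3.99% and 4.52% of the reads at that junction. Hsp90aa1 intron 10 (chr12:110658084-110658547, minus strand, ENSMUST00000021698), in the gene of the inducible cytosolic Hsp90 chaperone, had 719, 400, 657 and 394 unsplit reads at the 5′ junction against 129, 114, 125 and 137 at the 3′ junction. Actb intron 4 (chr5:142890004-142890098, minus strand, ENSMUST00000100497), of 95 nt in the gene of cytoplasmic beta-actin, had 573, 399, 540 and 413 against 104, 81, 122 and 89. In both genes unsplit reads were under 7% of the reads at the 5′ junction: 5.13% to 6.29% in Hsp90aa1 and 4.69% to 6.34% in Actb, with overlapping groups.

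Zfp42 intron 3 (chr8:43749574-43753664, minus strand, ENSMUST00000082120), the last intron of a zinc finger gene used as a marker of pluripotent cells, had 703, 499, 693 and 546 unsplit reads at the 5′ junction and 50, 55, 75 and 58 at the 3′ junction. With 1717, 1067, 1532 and 916 split reads, the unsplit share of the 5′ junction was 29%, 31.9%, 31.1% and 37.3%. Mid1 intron 8 (chrX:168769094-168770554, plus strand, ENSMUST00000036753), in the gene of a microtubule-associated ubiquitin ligase, had 859, 763, 854 and 845 unsplit reads at the 5′ junction and 443, 415, 597 and 353 split reads. Its unsplit share was 66.0%, 64.8%, 58.9% and 70.5%, with the knockdown libraries on both sides of the controls. Hnrnpa2b1 intron 11 (chr6:51438414-51438899, minus strand, ENSMUST00000090002), the last intron of a gene for an abundant nuclear RNA-binding protein, had 740, 553, 712 and 678 unsplit reads and only 60, 28, 62 and 36 split reads at the 5′ junction. Its 3′ junction had 365, 260, 305 and 203 split reads, so most reads that spliced to this 3′ site came from another 5′ site.

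**Figure D3:**
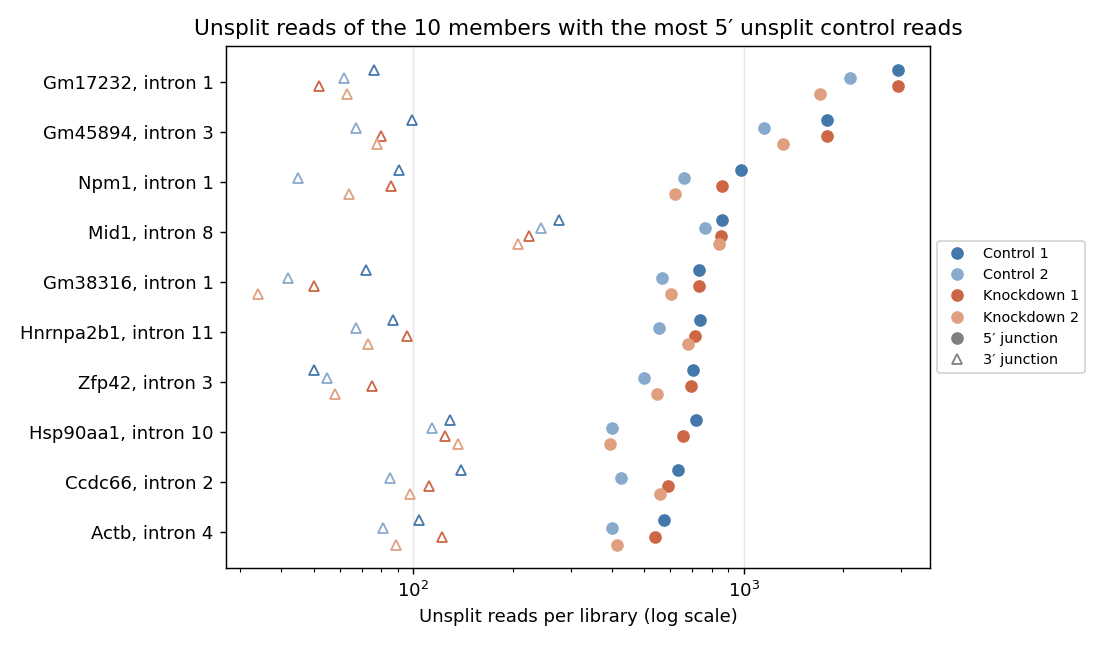
Unsplit reads per library (log scale) at the 5′ junction (filled circles) and the 3′ junction (open triangles) of the 10 introns with the most unsplit control reads at the 5′ junction, with 1 colour per library. In each intron the 4 circles lie to the right of the 4 triangles, from 394 to 2923 reads at the 5′ junction and from 34 to 276 at the 3′ junction.

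Split reads at the 2 junctions of an intron differ where one of the sites is also joined to another partner, and the rule did not use them. In the controls, split reads at the junctions were within 10% of each other in 2992 of the 5′-skewed introns (79.9%), against 77.9% of comparison introns and 87.6% of all introns. The 3′ junction had at least 2-fold more split reads than the 5′ junction in 335 (8.95%), against 7.29% of comparison introns, 3.55% of 3′-skewed introns and 2.67% of all introns. The opposite imbalance was present in 63 (1.68%), against 5.07% of comparison introns, 8.47% of 3′-skewed introns and 2.23% of all introns. Under 10 split reads at each junction were found in 36 (0.962%), and the remaining 317 lay between these classes.

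**Figure D4:**
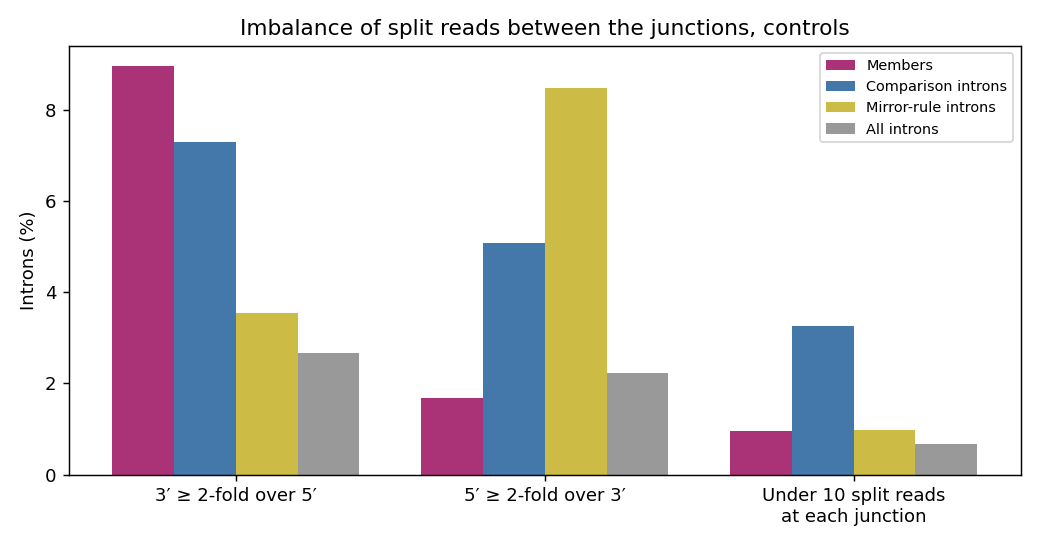
Share of introns (%) whose control split reads were at least 2-fold higher at the 3′ junction, at least 2-fold higher at the 5′ junction, or under 10 at each junction, for 5′-skewed introns (labelled members), comparison introns, 3′-skewed introns (labelled mirror-rule introns) and all introns. Of the 5′-skewed introns, 8.95% had the excess at the 3′ junction and 1.68% at the 5′ junction.

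The 335 introns with more split reads at the 3′ junction had other features in common. Of those matched, 39.9% (129) were first introns, against 4.80% of the balanced class, and their median length was 2171 nt against 1360 nt. At their 5′ junction a median of 97.3% of reads were unsplit in the controls and 97.7% in the knockdown. In the balanced class the medians were 17.4% and 17.0%. The high control value follows from the choice: at least 30 unsplit control reads there, with a median of 2 split reads. In 119 of them the 5′ junction had 0 split reads in both controls. The imbalance was at least 2-fold in the knockdown libraries too for 328 of the 335. Of the 36 introns with few split reads, 21 (58.3%) lay with the 5′ junction under an opposite-strand exon.

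The 5 introns with the highest ratio of 3′ to 5′ split reads in the controls are shown by the same 30 exonic bases, because these exon ends had 0 split reads in the controls. The exon before Spp1 intron 4 is 3 nt long, so only the capitals of its line belong to that exon and the rest to earlier exons of the transcript.
Cd81 intron 1: gcttccttcctgagcttcctttggtagACT
Actn1 intron 1: ccttttgctcacttcatcagaccagcaGAG
Spp1 intron 4: actgattctggcagctcagaggagaagAAG
Cox7a2 intron 1: ttggtgaatatttctccaaaatttaaaAAG
Ccna2 intron 3: gacatcactgcatggagaccagagataCTG

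Of these 5 exons, 4 ended in G and 2 in CAG or AAG. Cd81 intron 1 (chr7:142612388-142616229, plus strand, ENSMUST00000141954), in the gene of a tetraspanin membrane protein, had 92, 86, 91 and 114 unsplit reads at the 5′ junction, 0 split reads there and 1389, 935, 1508 and 1204 split reads at the 3′ junction. Actn1 intron 1 (chr12:80256248-80305440, minus strand, ENSMUST00000220351), of 49193 nt in the alpha-actinin gene, had 63, 41, 48 and 40 unsplit and 0, 0, 0 and 1 split reads at the 5′ junction, and 1292, 850, 1384 and 931 split reads at the 3′ junction. Both 3′ sites were thus joined to other 5′ sites in all 4 libraries. Spp1 intron 4 (chr5:104584770-104585520, plus strand, ENSMUST00000086833), in the osteopontin gene, had 38, 32, 37 and 32 unsplit reads at the 5′ junction and 1127, 717, 1174 and 767 split reads at the 3′ junction. Cox7a2 intron 1 (chr9:79665862-79666431, minus strand), in the gene of a cytochrome c oxidase subunit, had 17, 15, 17 and 13 unsplit reads at the 5′ junction. Ccna2 intron 3 (chr3:36623239-36624224, minus strand), in the gene of cyclin A2, had 45, 44, 31 and 33. In Ccna2 the knockdown values lay below the control values, without a correction for depth, and all 3 had 0 split reads at the 5′ junction in every library.

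The introns before and after were listed in all 4 libraries for 1563 of the 5′-skewed introns. Their median control unsplit reads at the 5′ junction were 22 in the previous intron, 51 in the intron itself and 14 in the next. At the 3′ junction the medians were 30, 9 and 20. The log2 ratio of split reads of the next to the previous intron had a median of 0.03 in the controls and 0.04 in the knockdown. For comparison introns the control median was -0.20 and for all introns -0.08. Split reads of the next intron were at least 2-fold below those of the previous intron in 309 cases (19.8%), against 25.4% for comparison introns and 20.7% for all introns. They were at least 2-fold above in 26.4%, against 19.1% and 18.7%.

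Knockdown and control were then compared in split reads per intron, a readout that the rule did not use. Of the 5′-skewed introns, 3405 had enough reads for the test, and 77 changed (2.26%): 11 rose and 66 fell (edgeR quasi-likelihood test, adjusted p under 0.05 over all tested introns). Over all 66468 tested introns the share called was 2.64%, with 0.326% higher and 2.31% lower, so the share in the 5′-skewed introns was near that of the background. At an unadjusted p under 0.05, 11.5% of the 5′-skewed and 12.2% of all introns were called. The median log2 fold change was 0.00, against 0.01 over all introns. The count was 21 without control 1, 24 without control 2, 407 without knockdown 1 and 119 without knockdown 2. DESeq2 called 31.

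**Figure D5:**
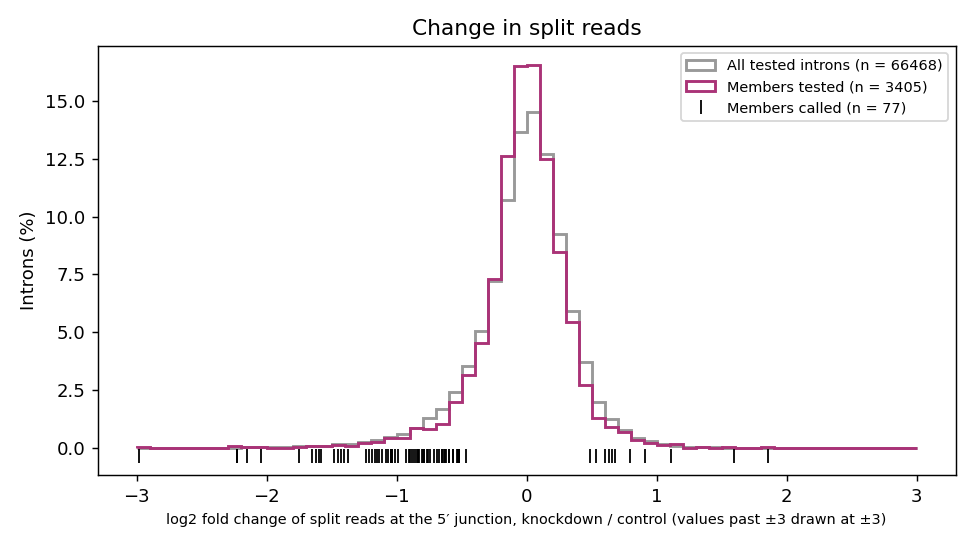
Log2 fold change of split reads at the 5′ junction, knockdown over control, for the 3405 tested 5′-skewed introns (labelled members) and all 66468 tested introns, each as a percentage of its introns per bin. Ticks under the axis mark the 77 called introns, and values past 3 in either direction are drawn at 3, so that the medians of 0.00 and 0.01 lie under the same peak.

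The 77 introns belonged to 69 genes, and for 62 of the 77 introns the gene was also called in spliced reads summed over its introns. That sum includes the intron's own split reads, so the intron and gene calls are not independent. Over all tested genes 8.72% were called. Their median length was 418 nt. Over all introns called lower, the median length was 193 nt. The median log2 fold change was -0.90 for those that fell and 0.68 for those that rose. The rule was met again in the knockdown by 47 of the 77.

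Of the introns with at least 50 split reads in every library, the largest falls included 2 of the 9 listed introns of Son itself. Son intron 7 (chr16:91467463-91468236, plus strand, ENSMUST00000114037) had 220, 188, 60 and 68 split reads at the 5′ junction, a log2 fold change of -1.62 (SE 0.218, adjusted p = 1.35e-06, edgeR). Its unsplit reads at the 5′ junction were 83, 38, 54 and 53, so split reads separated the groups and unsplit reads did not. Son intron 2 (chr16:91448685-91451498, plus strand, ENSMUST00000114036) had 359, 304, 118 and 124 split reads and 59, 41, 39 and 43 unsplit reads, with a log2 fold change of split reads of -1.40 (SE 0.182, adjusted p = 6.57e-07, edgeR). The last 30 exonic bases before these junctions are given because the 2 introns are those of the targeted gene.
Son intron 7: atgagtatgttaaaccgagctcaagaaCGG
Son intron 2: tcttagatacggagctgcggtacaagcCCG

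The other 3 of the 5 largest falls were in metabolic genes. Man2b1 intron 12 (chr8:85818575-85818693, plus strand, ENSMUST00000034121), of 119 nt in the gene of a lysosomal mannosidase, had 409, 322, 186 and 123 split reads, a log2 fold change of -1.22 (SE 0.163, adjusted p = 1.29e-06, edgeR). Its deposited splicing efficiency, the split fraction of all reads at both junctions, averaged 0.916 ± 0.022 in control and 0.797 ± 0.018 in knockdown libraries (mean ± SD, n = 2 each). Ptdss2 intron 6 (chr7:140732156-140732687, plus strand, ENSMUST00000026568), in a phosphatidylserine synthase gene, had 273, 184, 110 and 88 split reads, a log2 fold change of -1.15 (SE 0.188, adjusted p = 4.97e-05, edgeR). Its unsplit reads at the 5′ junction were 59, 36, 55 and 55 and at the 3′ junction 4, 2, 1 and 1, so the asymmetry was present in both groups. Fads2 intron 3 (chr19:10066168-10066271, minus strand, ENSMUST00000025567), of 104 nt in a fatty acid desaturase gene, had 472, 289, 197 and 140 split reads, a log2 fold change of -1.12 (SE 0.159, adjusted p = 3.87e-06, edgeR). In all 5 introns both knockdown libraries lay below both controls, which the choice of the largest called falls favours.

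The 5 largest rises were smaller in size than the falls. Cbr3 intron 2 (chr16:93482043-93487215, plus strand, ENSMUST00000039620), in a carbonyl reductase gene, had 61, 55, 146 and 100 split reads, a log2 fold change of 1.11 (SE 0.235, adjusted p = 0.00236, edgeR). Fblim1 intron 4 (chr4:141316727-141317254, minus strand, ENSMUST00000006381), in the gene of a filamin-binding adaptor, had 126, 99, 193 and 182 split reads, a log2 fold change of 0.80 (adjusted p = 0.0116, edgeR). Unsplit reads at its 5′ junction were also higher, with 39, 28, 93 and 75. Hbp1 intron 10 (chr12:31977507-31978582, minus strand), in the gene of an HMG-box transcription factor and under an opposite-strand exon at its 5′ junction, had 142, 83, 212 and 136 split reads, which overlap between the groups before scaling (log2 0.68, adjusted p = 0.0401, edgeR). Trim35 intron 2 (chr14:66540726-66541453, plus strand), in a ubiquitin ligase gene, had 136, 93, 211 and 140 (log2 0.66, adjusted p = 0.0468, edgeR), while unsplit reads at its 5′ junction were 67, 41, 26 and 28. Ints9 intron 15 (chr14:65273946-65274794, plus strand), in the gene of an Integrator subunit, had 169, 116, 215 and 205 (log2 0.63, adjusted p = 0.0479, edgeR). These 5 calls were lost without control 1, with adjusted p of 0.323 for Cbr3, 0.482 for Fblim1, 0.330 for Hbp1, 0.583 for Trim35 and 0.561 for Ints9. Without control 2 the values were 0.110 for Fblim1, 0.669 for Hbp1, 0.509 for Trim35 and 0.475 for Ints9, and without knockdown 2 they were 0.0882 for Fblim1 and 0.297 for Ints9. DESeq2 gave adjusted p of 0.128 for Fblim1, 0.286 for Hbp1, 0.311 for Trim35 and 0.329 for Ints9.

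The ratio of split reads at the 3′ junction to those at the 5′ junction was compared between the groups in 3480 of the 5′-skewed introns. At an adjusted p under 0.05, 0 were called, as were 0.0% of all 66541 tested introns (edgeR quasi-likelihood test). At an unadjusted p under 0.05, 26 (0.747%) were called against 0.586% of all. With limma on log2 ratios 0 were called, with 254 (7.30%) at an unadjusted p under 0.05 against 6.72% of all introns, and DESeq2 also called 0. In simulated data of the same size, 55% of 2-fold and 70% of 4-fold changes of this ratio were recovered by edgeR. There limma recovered 69% and 73%, with 54 false calls against 3 for edgeR. The simulation let the junctions share a fixed part of their reads and gave every intron the same spread between libraries. In the controls, split reads were within 10% at both junctions in 87.6% of all introns, so this recovery need not hold. The 0 calls therefore do not show an unchanged ratio.

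Of the 2494 genes with a 5′-skewed intron, 2408 were tested in spliced reads per gene, and 260 changed (10.8%): 66 rose and 194 fell. Over all 9474 tested genes the share called was 8.72%, with 1.96% higher and 6.76% lower (edgeR quasi-likelihood test, adjusted p under 0.05). At an unadjusted p under 0.05, 552 (22.9%) were called, against 19.7% of all genes. The median log2 fold change was 0.01 in both sets. For the fits that follow, the share of all genes called is not given, so their counts are not set against a background. Without control 1 the count was 114, without control 2 it was 109 and without knockdown 1 it was 786.

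For unsplit against split reads, both junctions summed, the odds differed between the groups in 46 of 3714 tested 5′-skewed introns (1.24%), with 45 higher and 1 lower, against 1.76% of all 63309 tested introns, with 1.71% higher and 0.0442% lower (edgeR quasi-likelihood test, adjusted p under 0.05). Control unsplit reads chose these introns, so nothing is read from that count or from the odds of single introns, for which values are given below with no test. The same holds for the 243 (6.54%) called at an unadjusted p under 0.05, against 9.72% of all. The median log2 odds ratio was 0.05, against 0.12 over all introns, and with split and unsplit reads scaled separately it was -0.09 against -0.01. Of the 46, 28 were also called in split reads, which enter both tests, so nothing is read from this overlap. The median length of the 46 was 263 nt. The count was 11 without control 1, 22 without control 2 and 30 without knockdown 2. DESeq2 called 16.

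Of the largest falls of splicing efficiency among these 46, 4 are described. Each had fewer split reads in both knockdown libraries than in both controls, which the choice by splicing efficiency favours. Ndor1 intron 4 (chr2:25139539-25139805, minus strand, ENSMUST00000100329), listed under 2 gene identifiers of a flavoprotein of iron-sulfur cluster assembly, had 175, 161, 34 and 36 split reads and 95, 69, 110 and 125 unsplit reads at the 5′ junction. Its splicing efficiency averaged 0.769 ± 0.015 in control and 0.317 ± 0.018 in knockdown libraries (mean ± SD, n = 2 each). The unsplit reads at its 3′ junction were 18, 22, 28 and 42, below those at the 5′ junction in every library.

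Mllt6 intron 4 (chr11:97556666-97557615, plus strand, ENSMUST00000044730), in the gene of a PHD finger protein, had 76, 59, 27 and 17 split reads and 35, 31, 114 and 93 unsplit reads at the 5′ junction. Split reads at its 3′ junction were 73, 58, 57 and 30, and the change in its ratio of 3′ to 5′ split reads was not called. The 5′ share of its unsplit reads was 79.5% and 86.1% in the controls and 73.5% and 86.1% after knockdown, and its unsplit reads at the 3′ junction were 9, 5, 41 and 15. Zfp653 intron 6 (chr9:21967825-21968582, minus strand), in a zinc finger gene, had 27, 16, 2 and 3 split reads and 13, 20, 20 and 17 unsplit reads at the 5′ junction. Comtd1 intron 5 (chr14:21897496-21897681, minus strand), in a methyltransferase-domain gene and under an opposite-strand exon, had 17, 23, 11 and 3 split reads and 22, 14, 93 and 38 unsplit reads at the 5′ junction. Split reads separated the groups in all 4 introns, while unsplit reads at the 5′ junction overlapped in Zfp653. These introns were picked for a fall of splicing efficiency, which is computed from the same reads. Nothing is therefore read from that separation. The single intron with lower odds was Ino80e intron 1 (chr7:126461190-126461445, minus strand), in the gene of a subunit of the INO80 chromatin remodeller and also under an opposite-strand exon. It had 0, 0, 3 and 10 split reads at the 5′ junction and 90, 68, 59 and 61 unsplit reads there.

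Genes that act on 5′ splice sites and on premature cleavage were looked at as lists, and over all introns 5.48% were 5′-skewed. Of 22 cleavage and polyadenylation factors in the list used here, 20 were listed, and 14 of these held 16 5′-skewed introns of 214 listed (7.48%). In spliced reads, 0 of the 20 rose and 1 fell: Cpsf1, the largest subunit of the cleavage and polyadenylation specificity factor, with a log2 fold change of -0.25 (adjusted p = 0.046, edgeR), or 0.407 without control 1 and 0.542 without control 2. The median of the 20 was 0.02. Over all 9474 tested genes, 1.96% were called higher and 6.76% lower, so 1 called of 20 was near the background. Of 10 genes of U1 snRNP, its associated proteins and the CDK12 group, 5 held 6 5′-skewed introns of 65 (9.23%), and 0 rose or fell, with a median of -0.02. Of 5 genes known for intronic polyadenylation, 4 were listed, 3 of them held 1 5′-skewed intron each of 58 (5.17%), and 0 rose or fell, with a median of -0.03. No test was made of these shares.

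Pcf11, a cleavage factor whose own gene has a known polyadenylation site in its first intron, had its 5′-skewed intron elsewhere, at intron 14 (chr7:92295234-92295637, minus strand, ENSMUST00000119954). It had 120, 70, 103 and 91 unsplit reads at the 5′ junction and 22, 20, 5 and 8 at the 3′ junction. The 3′ values were lower in both knockdown libraries and the 5′ values overlapped. Snrnp70 intron 1 (chr7:45044240-45044516, minus strand, ENSMUST00000209858), in the gene of the U1-70K protein, had 75, 68, 82 and 70 unsplit reads at the 5′ junction and 5, 5, 13 and 7 at the 3′ junction. With 14, 4, 14 and 9 split reads at the 5′ junction and 121, 62, 133 and 73 at the 3′ junction, this 3′ site was mostly joined to another 5′ site.

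Luc7l3, a U1 snRNP-associated protein, had 2 such introns. Intron 3 (chr11:94194813-94197011, minus strand, ENSMUST00000021226) had 82, 62, 33 and 57 unsplit reads at the 5′ junction and 20, 8, 9 and 17 at the 3′ junction, and intron 7 of the same model (chr11:94187994-94188584) had 80, 61, 44 and 46 and 15, 8, 16 and 11. In both introns the knockdown values at the 5′ junction lay below the control values, in libraries of unequal depth. Papola intron 19 (chr12:105795537-105799358, plus strand), in the gene of the canonical poly(A) polymerase, had 78, 65, 75 and 93 unsplit reads at the 5′ junction and 20, 13, 9 and 16 at the 3′ junction. Cdk12 intron 8 (chr11:98121912-98127530) had 29, 28, 35 and 34 against 9, 7, 7 and 5. Rbbp6 intron 5 (chr7:122584305-122584423), of 119 nt in the gene of a cleavage-complex ubiquitin ligase, had 21, 28, 22 and 7 against 1, 2, 2 and 1. Of the 22 introns of these lists, 21 were tested in split reads and 0 were called, where 2.64% of all introns were.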

How the data were processed

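Total RNA of 2 control and 2 Son siRNA samples was used. The authors deposited, per the labels, SPLICE-q tables that give, for an intron's 5′ and 3′ junction, counts of split and of unsplit reads, and a splicing efficiency score, a fraction from 0 to 1. In all listings this deposited fraction equalled the split reads over all reads of both junctions within 0.001, and no listed junction had fewer than 10 reads. The aligner, the SPLICE-q settings and the use of strand are not given in the sources used here. The submitters' processing notes name GRCm39, minimap2 and SAMtools without a role. The deposited counts of long reads per transcript were not used, since 0 of the 5′-skewed introns matched to GENCODE M21 held an annotated transcript end or further 5′ splice site inside.

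Introns repeated for several transcripts were reduced to 1 entry by position. Of 85015 introns found in at least 1 library, 68322 had an entry in each of the 4, and 67885 of these matched a GENCODE M21 model by transcript, intron number, strand and length. Counts were tested in R 4.3.3 with the edgeR 4.0.16 quasi-likelihood test, TMM scaling and Benjamini-Hochberg adjustment with a threshold of 0.05, fitted on all introns or genes. Split and unsplit reads, or 3′ and 5′ split reads, of a library entered as separate columns with a term per library and the same library size, for introns with at least 10 reads of each kind. Alternatives used DESeq2 1.42.0, other scaling, no filter, single junctions, other thresholds of the rule, each library left out, and limma 3.58.1 on log2 ratios; limma and single knockdown libraries were added after the data were seen. The introns, gene lists and tests were chosen with earlier results of these data known. Named introns were the 10 with the most control reads at the 5′ junction, the 5 largest rises and falls of called split reads (at least 50 reads per library) and of splicing efficiency, the 5 with the highest control ratio of 3′ to 5′ split reads, those at the limits of the rule, and those in the gene lists.

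Libraries held 10464961 to 15740941 split 5′ reads. Reads are not independent molecules, and values near the limit of 30 reads are imprecise from counting alone. Data were simulated with the real means and library sizes. There the test of split reads per intron recovered 70% of 2-fold and 99% of 4-fold changes, with 2 false calls. The test of unsplit against split reads recovered 5% and 63%, with 1 false call. The simulation gave every intron the same spread between libraries and placed changes only in introns above a read minimum. Recovery and false calls in the data may therefore differ. Of the columns that hold values per sample, 0 were unmapped. With 2 samples per group an exact permutation test cannot go below p = 0.333. Some introns that this rule picked are not reported here.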

Additional observations from a re-analysis of the deposited data

How the results depend on the processing

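Leaving out 1 library each gave 21 to 407 called 5′-skewed introns in split reads (77 with all), 109 to 786 called genes (260 with all), 11 to 64 called introns in the odds of unsplit reads (46 with all) and 0 in the ratio of 3′ to 5′ split reads. In these fits the lone sample of a group is assumed to vary like the other group. DESeq2 called 31 introns in split reads and 16 in the odds. With the 5′ junction alone the odds were called in 17 introns and with the 3′ junction alone in 14. With a ratio of 2 in the rule the calls were 147 in split reads and 95 in the odds, and with a ratio of 5 they were 27 and 10, from larger and smaller sets of introns. The rule was met again in the knockdown by 4348 of 6107 introns chosen with a ratio of 2, by 1097 of 1876 with a ratio of 5, by 3820 of 6195 with a minimum of 15 reads and by 1067 of 1576 with a minimum of 60. Each knockdown library alone, with a minimum of 15 reads, gave 2274 (library 1) and 2269 (library 2) of the 3743. The other changes of setting moved these counts by less than 1.5 times. Of the values of single introns and genes under the alternatives, 147 kept their direction and side of the threshold, 31 kept their direction but were no longer called, and 0 reversed. The cause of these differences was not tested. Shares of all introns or genes called under the alternative settings are not given. The counts therefore do not tell whether a setting acted on the 5′-skewed introns or on all introns.

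In split reads per intron, replicate numbers showed no pairing of the samples. The differences between replicates 1 and 2 of the controls and of the knockdown had a correlation of -0.003 over 44885 introns. Counting noise enters these differences, so an effect shared by replicates of the same number was not excluded. In both groups replicate 1 had more reads. The median unsplit share at the 5′ junction over all introns was higher in replicate 2 of both groups (4.95%, 5.56%, 5.43% and 6.22%). A fit with the replicate block called 88 introns in split reads, 302 genes, 63 introns in the odds and 0 in the ratio. The named introns with a further annotated 5′ splice site or transcript end inside, and their long reads, were not run because 0 such introns were found among the 3712 matched to GENCODE M21, the annotation used; the 31 unmatched were not checked. Of introns with 30 to under 60 control reads 56.2% met the rule again, and of those with a ratio from 3 to under 5 it was 51.8%; depth was not separated from closeness to the limits.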
